A study of Homo sapiens with 12 samples.

Results

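MARCKS, MME, GIPC3, ST8SIA1, FRAS1 and GTSF1 are 6 protein-coding genes on autosomes that were close to absent from the RNA of one genotype and clearly present in the other. They are 6 of the 2587 genes in the authors' deposited table, and they were picked by name for the size of their difference between cells knocked out for HuR (HuRKO) and wild-type (WT) cells. Their genotype differences are therefore a description here and carry no test. The name of the set holds fully for 4 of them. ST8SIA1 was near absent in resting HuRKO cells as well as in WT cells, so its wide gap belonged to the activated cells. FRAS1 stood at a modest level in resting HuRKO cells, at least 14.2-fold above WT cells, and its gap was wider after activation, at least 122-fold.

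The material was Jurkat, an established human line from a T-cell acute lymphoblastic leukaemia, with poly(A) RNA read from 12 libraries in 4 groups of 3. WT rest and HuRKO rest cells were left untreated. WT activated and HuRKO activated cells were given 20 ng/mL phorbol 12-myristate 13-acetate (PMA), which switches on protein kinase C, together with 500 ng/mL ionomycin, which lets calcium into the cell, for 24 h. How the HuRKO cells were made, and whether they descend from 1 clone, is not given in the sources used here, so the loss of HuR and any other difference between the WT and HuRKO cultures cannot be told apart. Of 14 T-cell marker genes, TRAC, CD2, CD7 and CD4 are in the table, and the other 10 were not analysed here. In resting HuRKO cells 3 were lower than in WT cells (TRAC at 552 against 3510.1, CD2 at 380.2 against 1759.9, CD7 at 2425 against 3890.0) and CD4 was higher, at 99.6 against 42.0. After activation TRAC was at 17916 against 23285 and CD2 at 399.7 against 1307, both lower, CD4 was higher at 45.9 against 6.92, and CD7 was not called at 649 against 643. Over all listed genes 15.4% were lower and 25.0% higher at rest, and 35.4% and 42.2% after activation. With 4 listed markers nothing is read from these counts.

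HuR, the product of ELAVL1, is an RNA-binding protein that recognises U-rich and AU-rich stretches, many of them in the 3′ untranslated region (UTR) of mRNAs, and it is best known for stabilising such mRNAs. A gene that is nearly silent in one culture and active in another can also differ by transcription, by the state of its chromatin or by the history of the cells. For MARCKS a link to HuR is known, since a stretch rich in C and U in its 3′ UTR has been described as a binding site of HuR and of its neuronal relative HuD. None of the values below measures binding, decay or chromatin.

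Levels are group means in normalised counts, rebuilt from the table's overall mean and its fold changes, and they have no spread of their own. The false discovery rate (FDR) of the authors' deposited table is the only measure of replicate error, and a call means an FDR below 0.05. Nothing in the labels says that the 3 libraries of a group came from separate cultures, so that spread may be technical. A level below 1, which is 3 counts over the 3 libraries of a group, is treated as the floor, and a fold against it is a lower bound. Sequencing depth per library is unknown. ELAVL1 itself was at 596 in resting HuRKO cells against 4042 in resting WT cells and at 471 against 2552 after activation, so 14.7% and 18.5% of its mRNA level remained. Of 17 listed chromosome Y genes, 16 were lower in HuRKO cells both at rest and after activation. That difference moved with the genotype in the same libraries, and its part in the results below was not tested. In bulk RNA, fewer cells with a transcript and less transcript per cell cannot be told apart.

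The 3′ UTR stretches below are printed because HuR sites are sought in such letters. They were read from the GENCODE 29 transcripts (hg38), 5′ to 3′ with T for U, each in its 30-base window with the most ATTTA pentamers, which stand in capitals. ATTTA is the core of the AU-rich element and was searched on the mRNA strand only.
MARCKS, chr6:113862004-113862033, plus strand: ccATTTAttggcATTTAgttttcATTTAag
MME, chr3:155181207-155181236, plus strand: ttatATTTAattattaactacATTTAtgag
ST8SIA1, chr12:22199073-22199102, minus strand: ggatagATTTAtgcagtagATTTAtatata
FRAS1, chr4:78543019-78543048, plus strand: ggagATTTAgagcaaaatctaATTTAgcat
GTSF1, chr12:54456004-54456033, minus strand: cctccccccttgaatcctcATTTAatgcaa
MARCKS longest run of C and T, chr6:113860739-113860761, plus strand: ttttttttttttctcccctcccc

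GIPC3 is not among these lines because its 3′ UTR of 3351 bases held 0 ATTTA pentamers, in a length class where 96.8% of 1856 genes held at least 1. The class of each gene is formed by all protein-coding genes whose 3′ UTR is at least 80% and at most 125% as long. MARCKS held 11 pentamers in 2892 bases against a class median of 6, and 18.9% of 2108 genes of its class held as many or more. MME also held 11, in 3270 bases, against a class median of 7. ST8SIA1 held 16 in a long 3′ UTR of 8161 bases, where the median was 18, and FRAS1 held 4 in 3145 bases, where it was 7. GTSF1 has a short 3′ UTR of 220 bases with 1 pentamer, and 28.8% of 1478 genes of that length had any. The set thus spans genes above, near and below the pentamer count of their length classes.

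Runs of U set MARCKS further from its class than the pentamers did. The letters TTTTTTT matched at 30 overlapping positions of the MARCKS 3′ UTR, against a class median of 4, and 1.61% of the class had as many. The run of C and T printed above begins within such a stretch and is 23 bases long, and 17.9% of the class had a run at least as long. ST8SIA1 had 21 matches to TTTTTTT against a class median of 16 and a run of C and T of 52 bases, a length reached in 1.41% of its class. FRAS1 had 1 match to TTTTTTT, and MME, GIPC3 and GTSF1 had 0. The longest run of C and T in GTSF1, the gene that was lower in HuRKO cells, was 18 bases, a length reached in 2.71% of its class of short 3′ UTRs. The nonamer TTATTTATT, a longer form of the AU-rich element, occurred only in ST8SIA1 among the 6, where it was found at 1 position, and 32.4% of its length class held it. A match to letters is a description and not a bound site, and a gene without a match may still be bound.

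**Figure D1:**
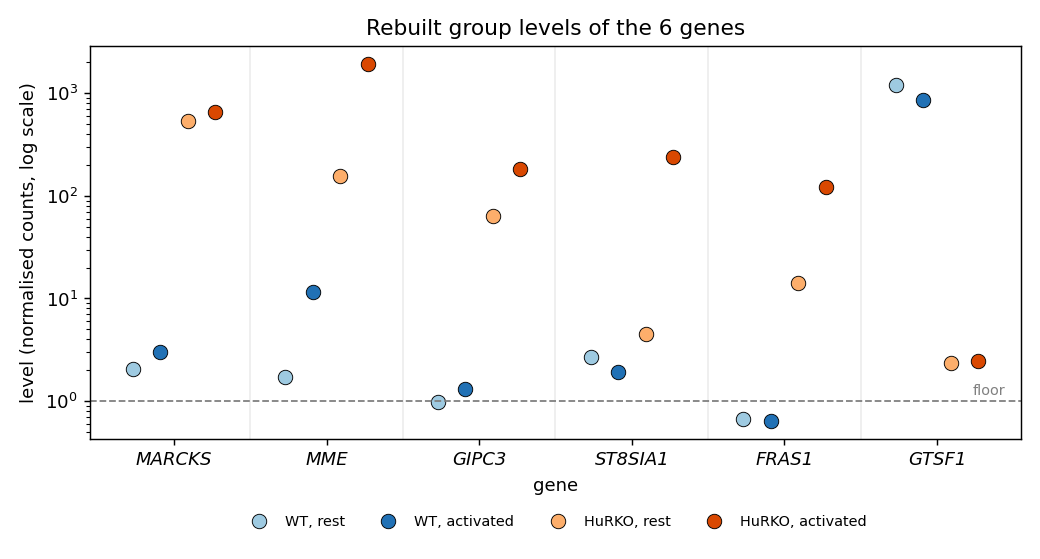
Rebuilt group levels of the 6 genes in normalised counts on a log axis, with 1 point for each group of 3 libraries and no error bar because the table gives none. MARCKS, MME and GIPC3 are high in both HuRKO groups, ST8SIA1 is high in activated HuRKO cells alone at 241, and GTSF1 is high in both WT groups.

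MARCKS (ENSG00000277443.2, chromosome 6, 113857362 to 113863471, plus strand, hg38) encodes a membrane-bound protein that holds actin and phosphoinositides and leaves the membrane when protein kinase C phosphorylates it. Its level was 2.06 in resting WT, 2.99 in activated WT, 532 in resting HuRKO and 651 in activated HuRKO cells. Both HuRKO groups lay far above both WT groups, and activation made little difference within either. HuRKO exceeded WT 259-fold at rest and 218-fold after activation. By the authors' deposited table these are log2 changes of 8.02 (FDR 2.2e-29) and 7.77 (FDR 2.8e-37). Activation, which engages the kinase that acts on the protein, was not called for the mRNA in either genotype, with log2 changes of 0.54 in WT (FDR 0.63) and 0.29 in HuRKO (FDR 0.48) in the authors' deposited table. MARCKS was thus the steadiest of the 5 genes that were higher in HuRKO cells, with an activation response that differed by -0.25 on the log2 scale between HuRKO and WT.

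MME (ENSG00000196549.10, chromosome 3, 155024124 to 155183729, plus strand) encodes neprilysin, a zinc peptidase of the cell surface that is also the leukaemia antigen CD10 of immature lymphoid cells. Its level was 1.72 in resting WT, 11.6 in activated WT, 157 in resting HuRKO and 1943 in activated HuRKO cells. The 4 groups stood well apart, with each genotype higher after activation and even resting HuRKO cells above activated WT cells. The genotype fold was 91.2 at rest and 167 after activation, and the authors' deposited table gives log2 changes of 6.51 (FDR 2.4e-20) and 7.38 (FDR 1.3e-133). MME rose on activation 6.77-fold in WT cells (log2 2.76 at an FDR of 0.00035 by the authors' deposited table). It rose 12.4-fold in HuRKO cells (log2 3.63 at an FDR of 2.2e-86 by the authors' deposited table). It is the only 1 of the 6 genes whose rise on activation was called in both genotypes, and the difference between the 2 rises, 0.87 on the log2 scale, was not tested.

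GIPC3 (ENSG00000179855.5, chromosome 19, 3585553 to 3593541, plus strand) encodes a PDZ-domain adaptor whose loss causes hearing impairment. Its level was 0.98, below the floor, in resting WT cells and 1.30 in activated WT cells. In HuRKO cells it was 63.1 at rest and 185 after activation. The WT groups sat at the floor and the HuRKO groups well above it. The rise over WT was at least 63.1-fold at rest and 142-fold after activation, with log2 changes of 6.01 (FDR 1.9e-10) and 7.15 (FDR 6.4e-20) in the authors' deposited table. Activation raised GIPC3 2.93-fold in HuRKO cells (log2 1.55 at an FDR of 4.3e-09 by the authors' deposited table) and was not called in WT cells (0.41, FDR 0.80).

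FRAS1 (ENSG00000138759.18, chromosome 4, 78057570 to 78544269, plus strand) encodes a very large extracellular matrix protein that helps to fix epithelia to the tissue beneath. Its level was below the floor in both WT groups, with rebuilt values of 0.67 at rest and 0.64 after activation. It was 14.2 in resting and 122 in activated HuRKO cells. The gap to WT cells was at least 14.2-fold at rest and at least 122-fold after activation. The authors' deposited table gives log2 changes of 4.39 (FDR 0.00047) and 7.58 (FDR 8.6e-12), and the bounds are the safer reading because the WT values lie under the floor. FRAS1 rose 8.63-fold on activation of HuRKO cells (log2 3.11 at an FDR of 3.5e-13 by the authors' deposited table). No fold is given for its activation in WT cells, where both groups were under the floor.

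ST8SIA1 (ENSG00000111728.10, chromosome 12, 22063773 to 22437041, minus strand) encodes GD3 synthase, the sialyltransferase that turns ganglioside GM3 into GD3 and opens the b-series of gangliosides. Its level was 2.69 in resting WT, 1.92 in activated WT and 4.54 in resting HuRKO cells, and then 241 in activated HuRKO cells. Activated HuRKO cells stood apart from the other groups, which were all within a few counts of the floor. The genotype difference at rest was not called, with a log2 of 0.75 and an FDR of 0.54 by the authors' deposited table. After activation HuRKO exceeded WT 125-fold (log2 6.97 at an FDR of 4.8e-23 by the authors' deposited table). Within HuRKO cells activation raised ST8SIA1 53.0-fold (log2 5.73 at an FDR of 2.7e-27 by the authors' deposited table), while in WT cells the change was -0.49 (FDR 0.67). The responses of HuRKO and WT cells differed by 6.22 on the log2 scale, the widest such gap of the 6 genes, and the table holds no test of that difference.

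GTSF1 (ENSG00000170627.10, chromosome 12, 54455950 to 54473602, minus strand) goes the other way. It encodes a small zinc-finger protein that works with PIWI proteins in silencing transposons in the germ line. Its level was 1219 in resting WT and 865 in activated WT cells, against 2.36 in resting and 2.43 in activated HuRKO cells. Only 0.193% of the WT level remained at rest and 0.281% after activation, a much smaller remainder than for ELAVL1. GTSF1 was 517-fold lower in HuRKO cells at rest and 356-fold lower after activation, with log2 changes of -9.01 (FDR 1.2e-53) and -8.47 (FDR 1.4e-54) in the authors' deposited table. In WT cells activation lowered it 1.41-fold (log2 -0.49 at an FDR of 0.0066 by the authors' deposited table). In HuRKO cells no change was called (0.05, FDR 0.96).

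**Figure D2:**
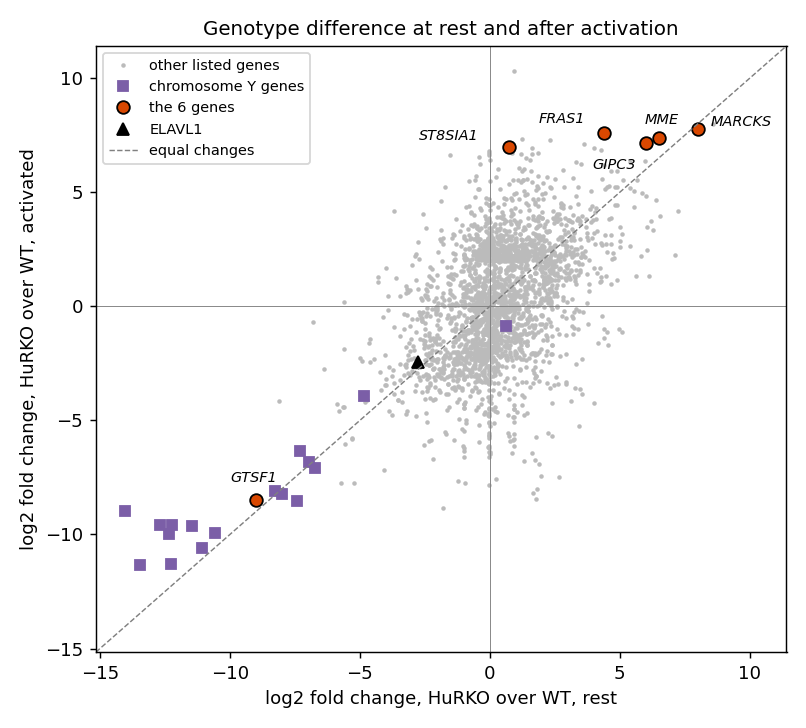
Genotype difference, as log2 of HuRKO over WT, in resting (horizontal) and activated cells (vertical) for each gene of the authors' deposited table, with the 6 genes in orange, chromosome Y genes as purple squares and ELAVL1 as a triangle. MARCKS, MME and GIPC3 lie near the line of equal changes, ST8SIA1 at 0.75 and 6.97 lies far above it, and GTSF1 lies among the chromosome Y genes at -9.01 and -8.47.

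Counted together, 4 of the 6 stood above WT and 1 below it in resting HuRKO cells, where 40.5% of all listed genes were called in either direction. After activation 5 were higher and 1 lower, where 77.6% of listed genes were called. These counts follow from how the genes were picked and nothing is read from them. The activation comparisons use the same libraries and are not independent of the choice, since genes picked as near absent in a genotype sit near the floor there and ST8SIA1 belongs to the set only through activated HuRKO cells. They too are given as a description. In HuRKO cells 4 of 6 rose on activation and 0 fell, next to 58.1% of listed genes that rose and 76.7% called in either direction. In WT cells MME rose, GTSF1 fell and 4 were not called, while 73.9% of listed genes were called, 52.0% as a rise and 21.8% as a fall. The 4 without a call in WT cells had levels between 0.64 and 2.99 there, where a change of a few counts is hard to see. The median log2 change on activation over the 6 genes was 0.17 in WT and 2.33 in HuRKO cells, and over all listed genes it was 1.42 and 1.45.

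**Figure D3:**
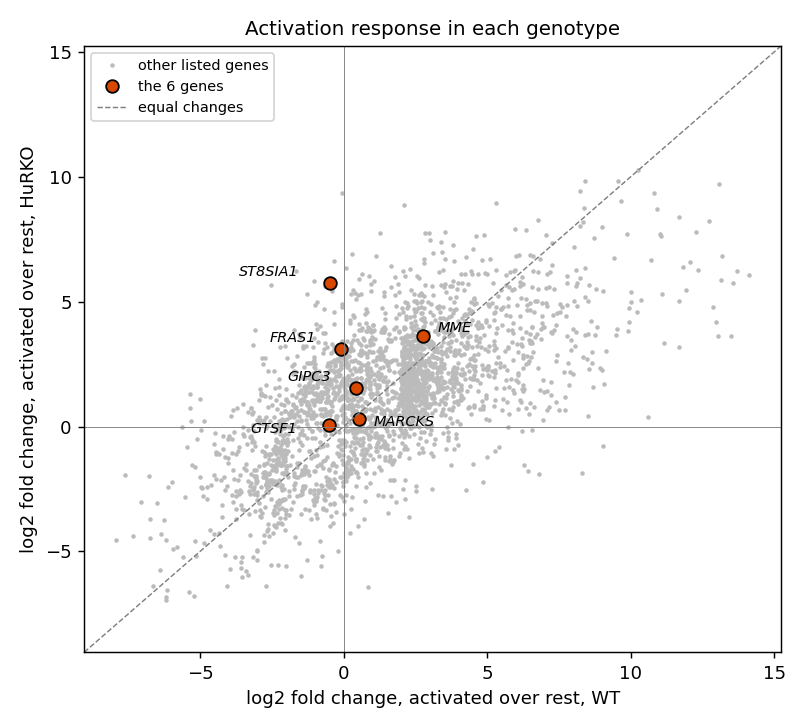
Log2 fold change of activated over resting cells in WT (horizontal) and HuRKO (vertical) for each gene of the authors' deposited table, with the 6 genes in orange. ST8SIA1 and FRAS1 lie near 0 for WT and at 5.73 and 3.11 for HuRKO, MME is up in both, and MARCKS and GTSF1 lie close to 0 in both.

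Compared per kilobase of their annotated principal transcript, the genes differed widely in their group levels. GTSF1 had 752 normalised counts per kilobase in resting WT cells, from a transcript of 1621 bases. In resting HuRKO cells MARCKS had 124, MME 28.4, GIPC3 14.6, FRAS1 0.907 and ST8SIA1 0.467 counts per kilobase. In activated HuRKO cells the order was MME at 352, MARCKS at 152, GIPC3 at 42.7, ST8SIA1 at 24.8 and FRAS1 at 7.83. MME and MARCKS changed places on activation, as did ST8SIA1 and FRAS1. These level values carry no error, and the isoform in use was not measured.

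Differences this large both at rest and after activation were uncommon in the table. With a log2 change of at least 5 in the same direction and an FDR below 0.05 in both genotype comparisons, 31 of 2587 genes qualified. Of these, 15 lie on chromosome Y and all 15 were lower in HuRKO cells, and 1 more is annotated on chromosome X. MARCKS, MME, GIPC3 and GTSF1 are among the 31, FRAS1 misses the limit at rest with 4.39, and ST8SIA1 misses it with 0.75. GTSF1 had the largest smaller change (8.47) of the 16 genes outside chromosome Y, and the processed pseudogene RPS8P4 (7.99) and MARCKS (7.77) came next. RPS8P4 is named for its place in that order, and as a pseudogene of a ribosomal protein gene its value is uncertain. With levels in place of changes, a rule chosen after the values were seen, 4 genes were below 5 in both WT groups and at least 50 in both HuRKO groups, namely PTGER3, TUFT1, GIPC3 and MARCKS. The opposite pattern was found in 13 genes, of which 10 lie on chromosome Y, and GTSF1, CTHRC1 and C22orf34 are the 3 others.

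Genes with the most similar course over the 4 groups were found by the Euclidean distance between profiles of log2(level + 1), each centred on its own mean, over the 4 group means. A distance near 0 means a similar course on that scale. Pseudogenes, genes with clone names and chromosome Y genes were left out of the search. The nearest genes named below are therefore the nearest of those kept, and a gene left out can lie nearer. The added 1 shrinks changes at levels near the floor, so genes of unlike height can lie close with unlike log2 changes. MARCKS lay nearest to EPHA3, an ephrin receptor (distance 1.94), which was at 1358 in resting HuRKO against 32.6 in resting WT cells and at 1215 against 15.1 after activation. GIPC3 (1.94) and COL6A2, a collagen VI chain (2.21), followed for MARCKS. MME lay nearest to GZMK, a granzyme of cytotoxic lymphocytes (0.98), which went from 57.6 to 755 on activation of HuRKO cells and from below the floor to 8.99 in WT cells. SLIT2, a guidance ligand (2.12), and GIPC3 (2.23) were the next for MME.

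GIPC3 lay nearest to COL6A2 (0.73), at 152 and 337 in resting and activated HuRKO against 2.97 and 7.14 in WT cells. ADD2 (0.83) and the antisense RNA HAGLR (1.41) followed. ST8SIA1 had the closest match of the set in SLC6A13, a transporter of GABA and taurine (0.19), which was at 130.4 in activated HuRKO cells and between 0.81 and 2.52 in the other groups. HS3ST3A1, a heparan sulfate sulfotransferase (0.54), and the cation channel gene TRPC6 (0.97) came next, with 216 and 62.6 in activated HuRKO cells and at most 5.31 in the other groups. FRAS1 lay nearest to CD93 (0.79), HAGLR (1.17) and EOMES, a T-box factor of cytotoxic cells (1.17). GTSF1 had no near match outside chromosome Y. Its closest were C22orf34 (3.57), CTHRC1 (3.64) and ZNF682 (3.83), and 12 chromosome Y genes lay nearer than any of them.

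Only autosomal genes were taken, but the position of the genes along their chromosomes was not used to pick them. The listed neighbours are a selection of changed genes, so they show only part of what the surrounding chromosome did. The 6 genes lie on chromosomes 3, 4, 6, 12 and 19, with ST8SIA1 and GTSF1 on different arms of chromosome 12. Near MARCKS 1 gene within 1 Mb is listed, the antisense RNA HDAC2-AS2 at 106 kb, which was at 63.8 in activated HuRKO against 8.37 in activated WT cells (log2 2.93 at an FDR of 2.6e-08 by the authors' deposited table). At rest it was at 9.99 against 3.07 (FDR 0.052). Near MME 1 of 10 protein-coding genes is listed, the phospholipase gene PLCH1 at 192 kb. PLCH1 was at 402 and 378 in resting HuRKO and WT cells, and at 1994 against 343 after activation (log2 2.54 at an FDR of 6.0e-09 by the authors' deposited table). Near FRAS1 the cyclin gene CCNG2, at 624 kb, was 415 against 205 at rest and 1613 against 312 after activation. Near ST8SIA1 0 of 18 protein-coding genes are in the table.

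GIPC3 lies in a gene-dense part of chromosome 19, where 9 of 62 protein-coding genes within 1 Mb are listed, beside 1 clone-named RNA. Of these 10 listed genes, activated HuRKO cells had 7 above WT and 1 below it, next to 42.2% of all listed genes that were higher there. At rest 2 were higher and 1 lower, next to 25.0% higher. CELF5, an RNA-binding protein gene at 288 kb, is 1 of the 2 nearest listed neighbours on its side. Of the 10 listed genes it had the most similar change, at 105 against 9.82 at rest and 334 against 23.2 after activation. That comparison was made after the values were seen. The tight-junction gene TJP3, at 115 kb, was 36.3 against 13.5 at rest and 194 against 39.4 after activation. SMIM24, at 105 kb, was at 455 against 498 at rest (the FDR is 0.64 by the authors' deposited table) and at 951 against 173 after activation. ZFR2, at 210 kb, was not called in either genotype comparison.

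GTSF1 had 2 listed neighbours of 45 protein-coding genes within 1 Mb, and neither was called lower with it. After activation both were called higher in HuRKO cells, next to 42.2% of all listed genes. GPR84, a fatty acid receptor gene at 91.5 kb, was at 292 in activated HuRKO against 37.4 in activated WT cells. In resting cells GPR84 was at 1.37 against 5.21 (the FDR is 0.082 by the authors' deposited table). NFE2, a factor of erythroid cells at 155 kb, was at 3.84 in activated HuRKO against a level below the floor in activated WT cells (the FDR is 0.029 by the authors' deposited table). A neighbour outside the table was not analysed here, since the table holds only genes that changed more than 4-fold somewhere.

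**Figure D4:**
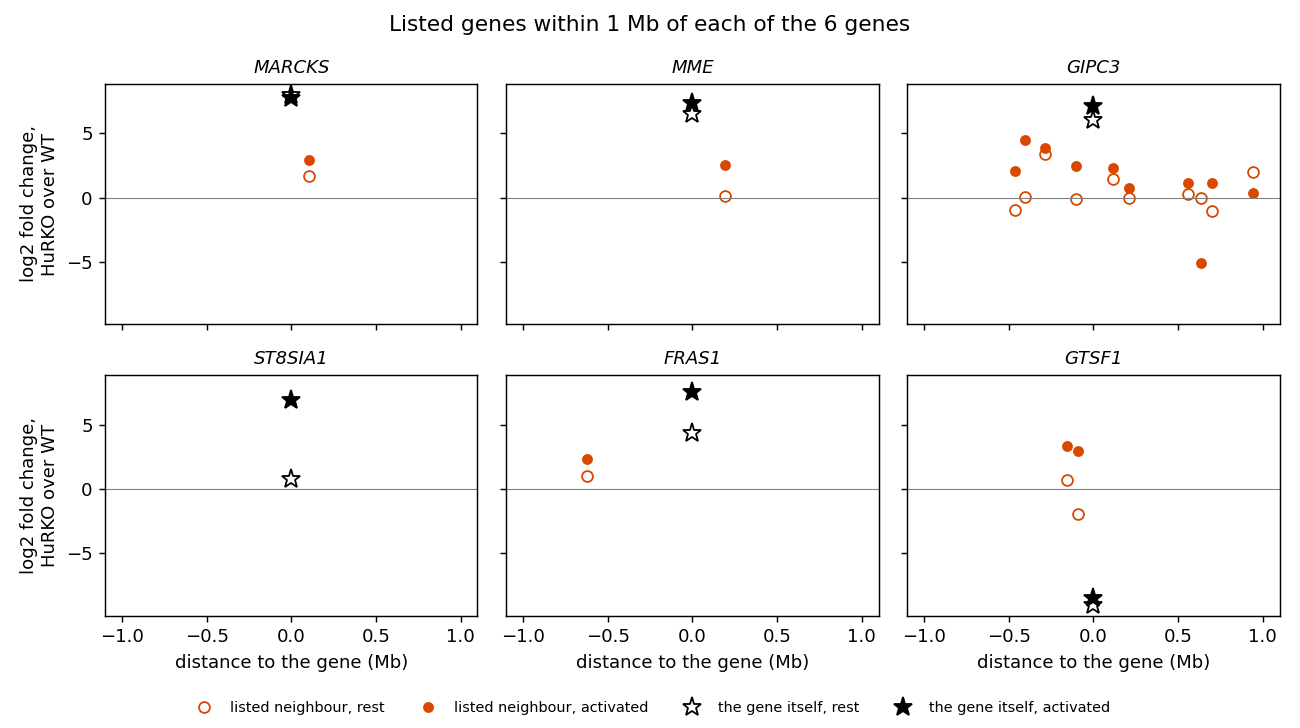
Genotype difference, as log2 of HuRKO over WT, at rest (open) and after activation (filled) for each listed gene within 1 Mb of the 6 genes, by its distance in Mb along the chromosome, with the gene itself as a star at 0. GTSF1 stands at -9.01 and -8.47 while both of its listed neighbours lie above 0 after activation, and CELF5 near GIPC3 at 3.41 and 3.85 is the neighbour with high values in both conditions.

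Some annotated genes overlap the set. CMAS, which encodes the enzyme that makes the activated sialic acid used by sialyltransferases, overlaps ST8SIA1 on the opposite strand, and MME-AS1 overlaps MME. Neither is in the table. The libraries were directional, but the strand setting of the counting is not given in the sources used here, so reads from such overlapping partners cannot be told apart from those of the gene.

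RefSeq promoters (GRCh38.p14, 250 bases before to 50 after a start) were matched for 5 of the 6 genes, MARCKS, MME, ST8SIA1, FRAS1 and GTSF1. CpG pairs, the sites of DNA methylation in mammals, numbered 35 in ST8SIA1, 25 in MARCKS, 16 in FRAS1 and 10 in GTSF1, and between 19 and 30 in the 4 MME starts. The median over 35116 promoters was 14, with quartiles of 4 and 28. GTSF1 was below the median promoter and the other matched genes were above it, but GTSF1 and FRAS1 both lay close to it. Of all promoters, 43.6% had fewer CpG pairs than GTSF1 and 52.5% had fewer than FRAS1. GTSF1, MARCKS and FRAS1 lay between the quartiles. With 1 gene that was lower in HuRKO cells, no contrast is read from these counts. These motifs were searched on both strands: the GC box GGGCGG (found in 45.0% of all promoters), the ETS core CCGGAAGT (4.14%), the TATA box TATAAA (11.5%), the AP-1 site TGANTCA (7.71%), and CCAAT (34.6%). TATAAA and TGANTCA were in none of the matched promoters. CCAAT was in MARCKS, ST8SIA1 and an MME start, and not in GTSF1 or FRAS1. The ETS core was in GTSF1, 12 bases before the start, and the GC box was in MARCKS, ST8SIA1, FRAS1 and 3 of the 4 MME starts. The ETS core of GTSF1 and the GC boxes of MARCKS and FRAS1 are printed as examples, in 30-base windows with the motif in capitals. No difference between genes low and high in HuRKO cells is read from them.
GTSF1, chr12:54473596-54473625, minus strand: aacgttaggcgCCGGAAGTggccgttgctg
MARCKS, chr6:113857252-113857281, plus strand: gcgcgcagaccCCGCCCcctgctttgtgtg
FRAS1, chr4:78057275-78057304, plus strand: acccaggcgagGGGCGGggacgagaaagta

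The wider families of these genes give the setting. Among 12 genes for MARCKS-like substrates of protein kinase C at the membrane, 4 are listed, with 3 above WT in resting HuRKO cells and, after activation, 3 above and 1 below. These counts include MARCKS, which was picked for this difference, and over all listed genes 25.0% were higher and 15.4% lower at rest, and 42.2% and 35.4% after activation. ADD2, beta-adducin of the membrane skeleton, was at 1301 against 54.4 at rest and at 2760.0 against 70.4 after activation. By the authors' deposited table those are log2 changes of 4.58 (FDR 2.7e-191) and 5.29 (FDR 1.3e-303). MARCKSL1, the close relative of MARCKS, was at 8318 against 4771 at rest and 5475 against 1241 after activation, so it was abundant in both genotypes. PLEK, or pleckstrin, was lower after activation, at 818 against 1323. A separate list of 12 protein kinase C isoforms has 2 listed genes. One of them, PRKD3, a protein kinase D gene, was lower after activation at 1046 against 3791. No direction of that list is read from it.

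Among 11 surface peptidase genes 3 are listed, and ECEL1 and MME were higher in both conditions. Over all listed genes 25.0% were higher at rest and 42.2% after activation, and MME was picked for this difference. ECEL1, a neprilysin relative, was at 8.36 in resting HuRKO cells against a level below the floor, and at 40.6 against 6.47 after activation. PHEX, another relative, moved differently, at 1092 against 10552 after activation (log2 -3.27 at an FDR of 8.0e-22 by the authors' deposited table). Of 7 genes of the GIPC family and its partners 3 are listed, GIPC3 included. The semaphorin gene SEMA4C, whose product binds GIPC proteins, was at 170 against 30.4 at rest and 300.2 against 47.6 after activation. NRP1 was not called in either genotype comparison. ST8SIA1 was the only listed gene of 15 for ganglioside synthesis. Of the 3 other sialyltransferases of the same linkage that were looked for, ST8SIA6 was at 23.6 against 3.49 at rest and at 60.1 against 2.67 after activation. ST8SIA6 thus already differed in resting cells (log2 2.76 at an FDR of 4.0e-05 by the authors' deposited table), where ST8SIA1 was not called.

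Of 20 genes of the Fraser complex and basement membrane, 5 are listed, and activated HuRKO cells had 4 above WT and 0 below it, next to 42.2% and 35.4% of all listed genes. FRAS1, picked for this difference, is 1 of the 4. Besides FRAS1 these were the nidogen NID2, at 1569 against 31.2, and the laminin chains LAMB1, at 1429 against 106, and LAMA5, at 81.1 against 11.8. At rest LAMB1 was at 581 against 52.3 and LAMA5 at 31.7 against 8.69, while NID2 was at 174 against 146 (the FDR is 0.30 by the authors' deposited table). HSPG2, or perlecan, was not called. All 5 rose on activation in HuRKO cells, FRAS1 included, next to 58.1% of all listed genes. Of 22 genes of the piRNA pathway and germ line, PLD6 and PIWIL2 are listed with GTSF1. Neither differed by a call at rest, and after activation PLD6 was at 16.5 against 111 and PIWIL2 at 50.7 against 7.09. Of 14 DNA methylation and Polycomb genes 0 are in the table.

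Markers of other cell types were listed unevenly, and those outside the table were not analysed here. Over all listed genes 25.0% were higher and 15.4% lower in HuRKO cells at rest, and 42.2% and 35.4% after activation. Of 10 B-lineage markers CD79B, IGLL1 and VPREB1 are listed, and beside the higher CD10 gene MME they were mixed at rest, with 1 higher, 1 lower and 1 not called. CD79B was at 10.1 against 1.41 and VPREB1 at 2.26 against 36.4. After activation IGLL1 was higher in HuRKO cells, at 497 against 123, and the other 2 were not called. Of 6 neuroectoderm and melanocyte markers, DCT was at 15.9 in activated HuRKO against a level below the floor in activated WT cells, and MITF was below the floor in activated HuRKO cells against 30.6. Of 6 fibroblast markers COL1A1 is listed, at 79.8 against 29.3 at rest and 144 against 210.0 after activation. Of 7 monocyte markers CSF1R is listed, at 31.5 against 7.11 after activation. None of the 5 germ cell and none of the 5 epithelial markers is in the table. Of 5 natural killer markers 4 are listed. At rest 1 was higher and 3 were not called, and after activation 2 were higher, 1 lower and 1 not called. NCAM1 was higher in both conditions and GNLY after activation, at 80.2 against 7.10, while KLRF1 was lower after activation. The part of these markers in the differences of the 6 genes was not tested.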

How the data were processed

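Poly(A) RNA of 12 Jurkat libraries was the material, and 1 table of comparisons was analysed. The submitters' processing notes name TopHat, Bowtie2 and hg38. What counted the reads, with which strand setting, and what tested them is not given in the sources used here. Per the file headers the table holds a baseMean, read as the authors' mean signal over all libraries in normalised counts, and for 4 comparisons a log fold change, taken as log2, and an FDR, a p-value adjusted by the authors. The header names no base. On base 2, rebuilt levels below the floor in resting WT cells gathered in steps (30.6% in the fullest window 10% wide, against 5.34% on base e), a check made after the data were seen. Each of the 2587 genes passes an FDR of 0.05 together with more than 4-fold change in 1 or more comparisons.

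Group levels were solved from the deposited mean and fold changes with equal groups of 3, using Python 3.11.15, pandas 2.3.3 and numpy 2.4.6, and the formula was tested on simulated data. Coordinates and transcripts are from GENCODE 29, to which 2577 genes were matched. The depth per library is unknown, so no interval was computed. No test was run beyond the authors' FDR. The members and gene lists were chosen with earlier results of these data known. Named genes were the 6 members, 3 nearest profiles each (without clone names, pseudogenes and chromosome Y) and up to 2 listed neighbours on each side. The rule also took the 10 autosomal genes with the largest smaller genotype change and up to 5 called genes per list. Genes named from the classes of level fall outside this rule and were chosen after their values were seen. TNFSF8, SHISA8 and DPYSL5, which passed the log2 limit of 5 but stand lower in that order, fall outside it too. There were 0 unmapped columns of values per sample. The result for 1 gene of the lists is not reported here.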

Additional observations from a re-analysis of the deposited data

How the results depend on the processing

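The counts of called genes among the 6 were within 1.5 times of those reported with an FDR below 0.01 and with a minimum log2 change of 1 or 2, except on activation of WT cells, where 2 became 1 with either minimum because GTSF1 drops out. With a floor of 3 normalised counts in place of 1, the genes under the floor numbered 5 in resting WT, 4 in activated WT, 1 in resting HuRKO and 1 in activated HuRKO cells, against 2, 1, 0 and 0. The median fold between genotypes at rest was then 36.7 against 77.2. Read on base e, no fold could be given for ST8SIA1 at rest, since both groups fell under the floor, and the median fold after activation was 464 against 154. The genes with large differences in both conditions numbered 60 with a log2 limit of 4, 20 with a limit of 6 and 19 with a mean level of at least 50, against 31. FRAS1 joins the set at a limit of 4, and 4 of the 6 genes remain at 6. Within 500000 bases GIPC3 had 6 listed neighbours against 10 within 1000000 bases and FRAS1 0 against 1, and within 2000000 bases, added after the data were seen, ST8SIA1 had 1 against 0. Of the classes by level, with limits of 3 and 100 in place of 5 and 50, the class near absent in WT cells held 1 gene against 4. The class near absent in HuRKO cells then held 10 against 13. With a low limit of 10 in place of 5, the class high only in activated HuRKO cells held 15 against 8. No result changed direction under these alternatives. No paired analysis was possible because the table has no values per sample, and for the same reason no replicate could be left out. Depth per library is unknown, so levels near the floor are the least certain.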

Other observations

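Beyond MARCKS, MME, GIPC3 and GTSF1, other autosomal genes passed a log2 change of 5 in both genotype comparisons. DPYSL5, a neuronal protein gene, was at 17.2 and 11.9 in resting and activated HuRKO cells and below the floor in both WT groups, and SHISA8 was at 16.1 and 7.02 against levels below the floor. ZNF682, a zinc-finger gene, was at 31.0 and 38.5 in WT cells and below the floor in HuRKO cells, at least 31.0-fold and at least 38.5-fold lower. CTHRC1, a secreted collagen-related protein gene, was 39.6-fold lower at rest and 56.8-fold lower after activation. TNFSF8, the CD30 ligand gene, was 37.3-fold lower at rest and 213-fold lower after activation.

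By level alone, 8 genes were below 5 in 3 groups and at least 100 in activated HuRKO cells, a rule chosen after the values were seen. They are ST8SIA1, SLC6A13, KCNJ13, DGCR5 and 4 genes of the GOLGA8 family (GOLGA8F, GOLGA8G, GOLGA8EP and GOLGA8CP). The GOLGA8 genes are near copies of each other, so their separate values are uncertain. None of the 8 lies on chromosome Y.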
